A study of Mus musculus with 18 samples.

Results

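Titanium dioxide (TiO2) particles were compared with vehicle in J774 cells, an established mouse macrophage line, on 6 of the 18 arrays of the series. The sample descriptions name 3 arrays of cells given titanium dioxide and 3 arrays of a vehicle control, and these 6 arrays are the whole of the comparison. Cells in 24-well plates received 10 µg of TiO2 per well without estradiol, or neither particles nor estradiol, and RNA was taken after 24 h. The other 12 arrays hold 3 each of cells given 10 µg talc per well, 2 µg/mL estradiol (17-β estradiol), talc with estradiol, and TiO2 with estradiol, over the same time. All cells were grown in medium free of phenol red with serum. No label states that replicate arrays came from separate cultures. The p-values therefore cover just the spread among these samples, and that spread may be technical. Array numbers run through the groups in order, with TiO2 at 13 to 15 and vehicle at 1 to 3, and any influence of the order and the treatment itself cannot be told apart.

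Macrophages bind particles through scavenger and lectin receptors, engulf them into phagosomes and pass them to lysosomes. Particles that damage the lysosome can start the NLRP3 inflammasome, and poorly soluble particles can change inflammatory, antioxidant and metal-handling genes. Titanium dioxide dissolves little and is often set beside more reactive minerals as a comparison particle. The integrated stress response is a further pathway followed here. In it, kinases that sense a lack of amino acids or unfolded protein slow translation and raise the transcription factor ATF4, which turns on genes for amino acid transport, amino acid synthesis and tRNA charging.

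The deposited values were an intensity for each probe set, and log2 means over the probe sets of a gene covered 23102 genes. The medians of the arrays ranged from 45.6 to 48.0 intensity units, and the number of arrays limits the precision. The tests came from limma, in 1 model over all 18 arrays, and genes with an adjusted p under 0.05 (Benjamini-Hochberg, over all genes) passed. Markers of macrophages stood high, with 25 measured and a median level at percentile 95.6 of all genes. Cd68, a lysosomal glycoprotein of macrophages, had a mean log2 intensity at percentile 99.9, and the growth factor receptor Csf1r one at percentile 99.2. Markers of fibroblasts, epithelia, lymphocytes, and granulocytes with mast cells had median levels at percentiles 46.0, 40.2, 26.1 and 22.6, and the median differences of these lists between TiO2 and vehicle were -0.13, -0.15, -0.09 and -0.01.

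No gene passed in TiO2 against vehicle (0%, limma). An unadjusted p under 0.05 was found for 896 genes that stood higher with TiO2 (3.88% of all) and 990 that stood lower (4.29%). In 1389 genes the 3 TiO2 arrays all lay above the 3 vehicle arrays (6.01%), and in 1482 all lay below them (6.42%). Since none passed, "higher" and "lower" below give the side on which values lay, not a called change.

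The differences were small and their bounds narrow. The median absolute difference over all genes was 0.12 log2 units, and 95% of genes differed by 0.40 or less. A difference beyond 0.5 was seen in 555 genes and one beyond 1 in 28. For 22439 genes (97.1%) a 2-fold difference in either direction was outside the 95% interval, and for 17503 (75.8%) a 1.5-fold difference was. Among the 11551 genes above the median level these shares were 98.7% and 87.4%. Of the 28 genes beyond 1 log2 unit, 14 lay on each side, 14 rested on 1 probe set and 15 stood at or below the median level.

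Gpr183 had the smallest p on either side. It encodes a receptor for hydroxylated cholesterol derivatives that guides the movement of immune cells. Its TiO2 arrays read 8.40, 8.46 and 8.36 log2 units and its vehicle arrays 7.67, 7.84 and 7.85. All TiO2 values lay above all vehicle values, and above the other 15 arrays of the series too, which 77 genes did (0.333%). The difference was 0.62 ± 0.09 (SE, n = 3 and 3, limma adjusted p = 0.082), or 1.54-fold with a 95% interval of 1.34 to 1.75, and 3 of its 3 probe sets were higher. With estradiol present the same particle gave 8.25, 8.22 and 8.10 against 8.12, 8.26 and 8.13, a difference of 0.02 ± 0.09. Estradiol alone also lay above vehicle on all 3 arrays, by 0.39. That difference shares the vehicle arrays with the TiO2 comparison, and their part in it was not tested. Ch25h, the enzyme that makes the precursor of the Gpr183 ligand, stood at 3.91, 4.20 and 3.69 with TiO2 and 3.64, 4.25 and 3.78 with vehicle, and these overlapped. In the list of oxysterol receptors and enzymes, 2 of 21 members, Gpr183 among them, were higher and 1 lower at an unadjusted p under 0.05. These were 9.52% and 4.76%, beside 3.88% and 4.29% of all genes. The interval of each of the 21 lay within 2-fold.

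Il18bp encodes the secreted protein that binds interleukin 18 and keeps it from its receptor. It read 5.57, 5.76 and 5.34 with TiO2 and 4.83, 4.72 and 4.97 with vehicle. No values overlapped, the TiO2 arrays lay above the other 15, and all 8 probe sets were higher. The difference was 0.71 ± 0.13 (adjusted p = 0.23, limma). In the presence of estradiol the order was turned, with 4.78, 5.17 and 4.81 for TiO2 and 5.32, 5.31 and 5.30 for estradiol alone, a difference of -0.39. The test of whether the TiO2 difference depends on estradiol gave -1.11 ± 0.18 with an adjusted p of 0.18 (limma). It contains the difference by which the gene was chosen, so it is not independent of that choice.

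Other genes with small p on the higher side belong to several processes. Sertad3, a transcriptional coregulator, read 6.74, 7.04 and 6.64 against 6.01, 6.25 and 6.16, a difference of 0.67 ± 0.12. Ifitm2, an interferon-induced membrane protein that hinders virus entry, read 10.62, 10.70 and 10.45 against 10.15, 10.12 and 9.98, a difference of 0.51 ± 0.10. Ndufs3, a core subunit of respiratory complex I, read 7.28, 7.11 and 7.19 against 6.76, 6.59 and 6.90, a difference of 0.45 ± 0.10. The TiO2 and vehicle arrays of these 3 genes did not overlap, and the TiO2 arrays of Ndufs3 also lay above the other 15 arrays. For Ttll3, a tubulin glycylase, the difference was 0.68, and 17 of its 21 probe sets were higher, but its brightest probe set gave -0.01. Tmem106a, a macrophage membrane protein, differed by 0.44, and Trappc6a, a subunit of a vesicle tethering complex, by 0.39. The ribosomal protein gene Rpl37a, measured by 2 probe sets, read 6.18, 6.20 and 6.06 against 5.61, 5.63 and 5.63. Here it was the vehicle arrays that stood apart, below the other 15, as in 46 genes (0.199%). The 10 leading genes on the higher side had adjusted p-values from 0.08 to 0.32, and each of their intervals lay within 2-fold.

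**Figure D1:**
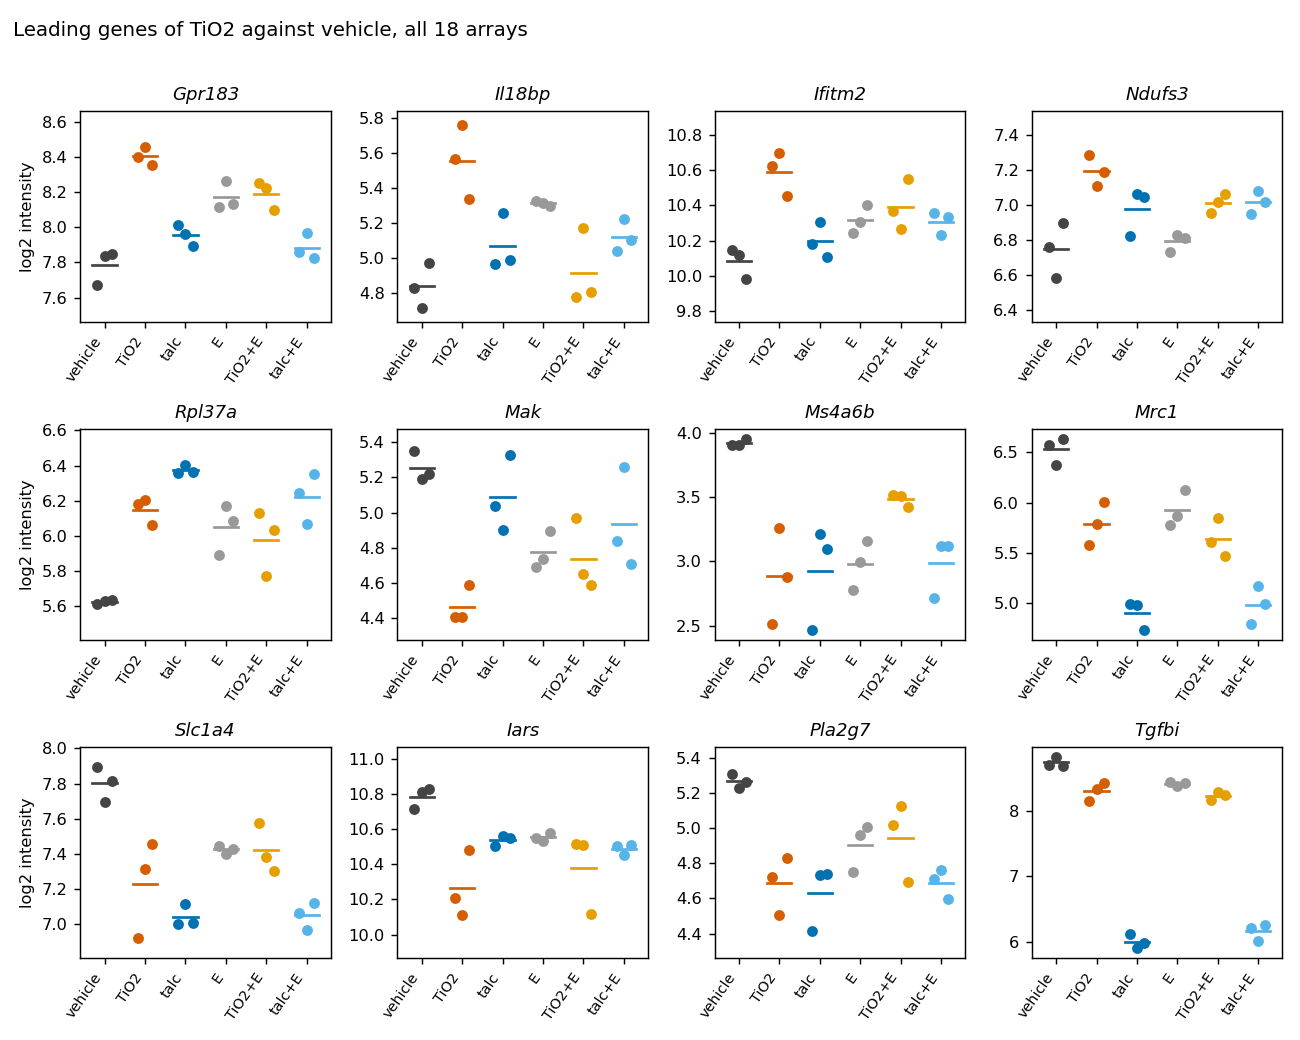
Log2 intensity of 12 leading genes on all 18 arrays, a point per array and a line at each group mean, with the 6 groups along the horizontal axis (E stands for estradiol). The TiO2 points of Gpr183 and Il18bp lie above all others, while the vehicle points of Ms4a6b, Mrc1, Slc1a4, Iars, Pla2g7 and Tgfbi lie above all others and those of Rpl37a below.

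On the lower side the gene with the smallest p was Ms4a6b, which encodes a membrane protein of the MS4A family found on immune cells. Its values were 2.51, 3.26 and 2.88 with TiO2 and 3.91, 3.91 and 3.96 with vehicle. The groups did not overlap, although the gene was dim, at percentile 14.9 of all genes. The difference was -1.04 ± 0.19 (adjusted p = 0.23, limma), and the fold lay between 0.37 and 0.65 (95% interval). In the presence of estradiol the TiO2 arrays read 3.52, 3.51 and 3.42 and stood above the 2.78, 3.0 and 3.16 of estradiol alone, a difference of 0.50. The interaction was 1.54 ± 0.27, with an adjusted p of 0.20 (limma), and it too contains the difference by which the gene was chosen.

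Mrc1, the mannose receptor, binds sugars on microbes and is a marker of alternatively activated macrophages. It read 5.58, 5.78 and 6.01 with TiO2 and 6.57, 6.38 and 6.64 with vehicle, a difference of -0.74 ± 0.14 (adjusted p = 0.26). The groups did not overlap, and 2 of 24 probe sets went the other way. Pla2g7, which encodes a secreted phospholipase that breaks down platelet-activating factor, read 4.72, 4.51 and 4.83 against 5.31, 5.23 and 5.26, a difference of -0.58 ± 0.13. The matrix protein gene Tgfbi, which TGF-β induces, read 8.14, 8.33 and 8.42 against 8.70, 8.83 and 8.69, a difference of -0.44 ± 0.10. With estradiol the TiO2 arrays again lay below their controls, by -0.18.

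Mak, Slit2 and Nbl1 were low in the TiO2 arrays against every other array, a pattern of 44 genes (0.19%). Mak encodes a protein kinase related to the cyclin-dependent kinases. Its TiO2 arrays read 4.40, 4.41 and 4.58 and its vehicle arrays 5.35, 5.19 and 5.22, a difference of -0.79 ± 0.15 (adjusted p = 0.23, limma). Mak stood apart by a narrow margin, with TiO2 replicate 3 at 4.5850 and TiO2 plus estradiol replicate 3 at 4.5863. In the presence of estradiol its difference was -0.04, and estradiol alone minus vehicle gave -0.48. Slit2, a secreted guidance factor, differed by -0.52 ± 0.11, and by -0.33 in the presence of estradiol. For Nbl1, an antagonist of bone morphogenetic proteins, the difference was -0.63 ± 0.14 without estradiol and -0.04 with it. Slit2 and Mak stood at percentiles 22.0 and 52.1 of all genes, so Slit2 was a dim signal.

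Most of the leading genes on the lower side had another shape. In 7 of the 10 (Ms4a6b, Mrc1, Pacsin1, Slc7a11, Slc1a4, Iars and Pla2g7), the 3 vehicle arrays lay above all other 15 arrays of the series, a pattern of 90 genes in all (0.39%). For Pla2g7 the estradiol arrays read 4.75, 4.96 and 5.01, and for Slc1a4, a transporter of serine and other small neutral amino acids, they read 7.45, 7.40 and 7.43 beside 6.92, 7.32 and 7.46 with TiO2 and 7.90, 7.70 and 7.81 with vehicle. Every comparison with vehicle uses the same 3 vehicle arrays, so the talc and estradiol comparisons are no independent check of these differences. Whether a property of the vehicle arrays takes part in them was not tested.

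The integrated stress response and amino acid supply list was the lowest of the 33 lists by its median, but by a small margin. The epithelial and fibroblast marker lists, of 12 genes each, followed with medians of -0.15 and -0.13. Of their members, 16.7% and 25% were lower at an unadjusted p under 0.05. The 38 members of the stress response list were all measured and had a median difference of -0.17, beside -0.01 over all genes. An unadjusted p under 0.05 was found for 13 members lower (34.2% of the list, beside 4.29% of all genes) and for 1 higher (2.63%, beside 3.88%). The list was chosen with earlier results of these data known, so these shares are a description and no independent support. In 16 members the TiO2 arrays all lay below the vehicle arrays, as in 6.42% of all genes. The intervals of 37 of the 38 lay within 2-fold. Fitting only the 6 arrays compared left 6 lower members, the brightest probe set per gene left 7, and leaving out TiO2 replicate 1 left 8.

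Slc7a11 encodes the cystine-glutamate exchanger that feeds glutathione synthesis. Its arrays read 4.61, 4.50 and 5.24 with TiO2 and 5.36, 5.49 and 5.69 with vehicle, a difference of -0.73 ± 0.15 (adjusted p = 0.28, limma). The groups were separate but TiO2 replicate 3 was near the vehicle arrays, and without it the difference was -0.96 and passed with an adjusted p of 0.017. Chac1, which encodes an enzyme that breaks down glutathione, read 7.47, 7.43 and 7.73 against 8.03, 8.0 and 8.30, a difference of -0.56 ± 0.13. Asns, asparagine synthetase, read 9.31, 9.08 and 9.19 against 9.58, 9.58 and 9.45, a difference of -0.34 ± 0.10. The serine synthesis enzyme Psat1 read 8.83, 8.44 and 8.66 against 9.03, 9.01 and 9.05, a difference of -0.39 ± 0.11. In each of these genes no TiO2 value reached a vehicle value, and 0 probe sets of Slc7a11 (16), Chac1 (6) and Asns (18) were higher with TiO2.

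Some transporters and charging enzymes of the list were lower at an unadjusted p under 0.05, while the transporters Slc7a3 and Slc3a2 (0.01 and -0.08) and the charging enzymes Gars and Sars (-0.07 and -0.10) lay near 0. Slc7a5, the leucine transporter of many cells, differed by -0.37, the glutamine transporter Slc38a2 by -0.26, and the arginine and lysine transporter Slc7a1 by -0.31. The alanine and cysteine charging enzymes Aars and Cars differed by -0.22 and -0.26, and Iars, the isoleucine charging enzyme, which the list did not hold, read 10.21, 10.11 and 10.48 against 10.72, 10.81 and 10.83. Cth, the last enzyme of cysteine synthesis, differed by -0.43, and Shmt2, the mitochondrial serine enzyme, by -0.30. The regulators themselves were nearer to 0, with -0.11 ± 0.10 for Atf4 and -0.16 ± 0.12 for Ddit3. Ddit4, an inhibitor of mTORC1 that stress and low oxygen induce, was the 1 member higher at an unadjusted p under 0.05, at 8.93, 8.94 and 8.57 against 8.57, 8.54 and 8.34. Its groups did not overlap, with TiO2 replicate 3 beside the highest vehicle array.

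The start regions of the 4 lower members that hold a C/EBP-ATF response element are shown, since this element is where ATF4 and its partners bind in several known targets. Each line gives 250 bases before to 50 after the start of the gene, from RefSeq on build GRCm38.p6, 5′ to 3′ on the strand of the gene, with capitals on each match to TGATGNAAN on either strand. The region of Slc7a11 is chr3:50443564-50443863 on the minus strand, that of Chac1 chr2:119350992-119351291 on the plus strand, that of Asns chr6:7693160-7693459 on the minus strand and that of Aars chr8:111033592-111033891 on the plus strand.
Slc7a11: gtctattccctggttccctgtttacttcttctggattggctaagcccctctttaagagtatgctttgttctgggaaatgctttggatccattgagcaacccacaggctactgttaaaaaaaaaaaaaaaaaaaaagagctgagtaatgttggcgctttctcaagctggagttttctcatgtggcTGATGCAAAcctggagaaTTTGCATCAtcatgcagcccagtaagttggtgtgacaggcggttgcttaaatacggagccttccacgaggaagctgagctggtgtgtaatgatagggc
Chac1: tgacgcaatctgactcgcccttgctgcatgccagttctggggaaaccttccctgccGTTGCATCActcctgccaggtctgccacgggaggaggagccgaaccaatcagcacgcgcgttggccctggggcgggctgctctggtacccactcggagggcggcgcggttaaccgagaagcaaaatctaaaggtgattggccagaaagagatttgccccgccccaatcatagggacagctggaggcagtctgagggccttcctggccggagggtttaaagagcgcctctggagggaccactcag
Asns: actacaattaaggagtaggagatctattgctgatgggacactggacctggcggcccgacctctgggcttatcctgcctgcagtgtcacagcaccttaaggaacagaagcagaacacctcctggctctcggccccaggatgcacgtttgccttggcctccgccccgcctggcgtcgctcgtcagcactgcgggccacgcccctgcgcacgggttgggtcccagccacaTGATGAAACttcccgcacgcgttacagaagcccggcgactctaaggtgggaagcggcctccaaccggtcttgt
Aars: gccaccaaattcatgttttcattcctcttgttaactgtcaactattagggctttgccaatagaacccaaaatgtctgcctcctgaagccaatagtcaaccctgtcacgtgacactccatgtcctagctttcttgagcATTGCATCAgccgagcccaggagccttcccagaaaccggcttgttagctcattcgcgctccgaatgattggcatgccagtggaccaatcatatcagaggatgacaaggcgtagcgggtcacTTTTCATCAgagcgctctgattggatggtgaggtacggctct
Slc7a11 and Aars each hold 2 matches, and Chac1 and Asns 1 each. A match was found in 3.95% of 32851 start regions and in 4.5% of 27025 genes with such a region. Of the 32 list members with a region, 11 held a match, or 34.4%. By the list's measured differences, a match was found for 4 of the 10 lower members with a region and for 7 of the other 22, among them Atf3, Nupr1 and Vldlr. Several members are in the list because they are known ATF4 targets. A match describes the letters only.

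In the presence of estradiol the list did not lie lower with TiO2. The median difference between TiO2 plus estradiol and estradiol was 0.01, on arrays that the main comparison does not use, and Slc7a11 read 4.91, 4.92 and 4.96 against 5.06, 4.81 and 4.89. Of the 13 lower members, 6 lay below 0 there. Against the same vehicle arrays, estradiol alone gave a list median of -0.19, and all 13 lay below 0, while talc alone gave -0.02 with 11 of the 13 below 0. These medians and the counts beside them share the vehicle arrays with the TiO2 comparison. The 13 were chosen as lower than those arrays, which favours values below 0 for estradiol and talc against vehicle. The counts of 13 and 11 are therefore no independent check. The median deviation of the list from its mean over all arrays was -0.14, -0.11 and -0.02 in the TiO2 arrays and 0.08, 0.12 and 0.09 in the vehicle arrays. It was -0.11, -0.08 and -0.04 with estradiol and -0.05, -0.08 and -0.02 with TiO2 plus estradiol, below all vehicle values. The talc arrays, at 0.11, 0.05 and 0.10, stood as high as vehicle, so by this median vehicle did not stand apart from every other group. Of the 13 lower members, though, 6 had vehicle arrays above all other 15, as had 0.39% of all genes. The 13 were chosen as lower than these vehicle arrays, and the part of vehicle in the list was not tested.

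**Figure D2:**
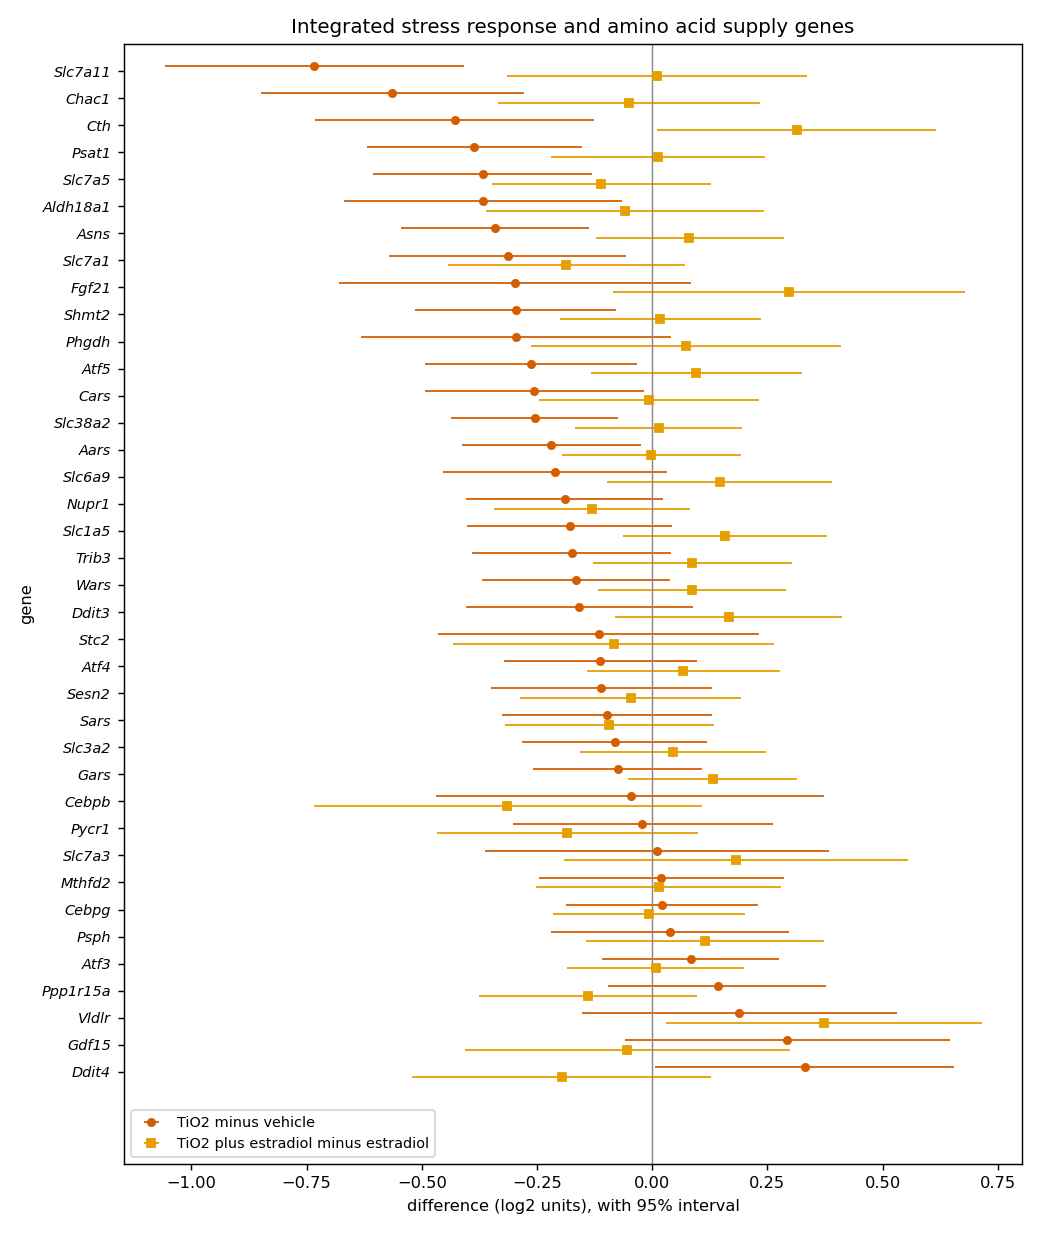
Differences of the 38 integrated stress response and amino acid supply genes in log2 units, with 95% intervals, for TiO2 minus vehicle (circles) and TiO2 plus estradiol minus estradiol (squares), a gene per line. The circles run from -0.73 for Slc7a11 to 0.33 for Ddit4, and most squares lie near 0, with a median of 0.01.

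Genes of the immediate early class, which respond to signals within minutes to hours, lay slightly higher. Of 30 measured, 6 were higher and 0 lower at an unadjusted p under 0.05 in limma, with a median of 0.11. These were 20% and 0% of the list, beside 3.88% and 4.29% of all genes. Ier3, a survival factor induced by stress, read 10.02, 10.33 and 9.79 against 9.49, 9.53 and 9.24, a difference of 0.63 ± 0.18. Btg2, which slows proliferation, read 8.56, 8.50 and 8.28 against 8.17, 8.18 and 8.01, a difference of 0.33 ± 0.11. These groups did not overlap, but Zfp36, whose product destabilises cytokine mRNA, read 7.40, 7.49 and 8.0 against 6.78, 6.98 and 7.80 and did overlap. Fos, a subunit of the transcription factor AP-1, read 4.74, 4.32 and 4.36 against 4.37, 4.34 and 4.37, a difference of 0.11 ± 0.15. The count of 6 was 2 if the brightest probe set or the median of probe sets stood for a gene, 2 with only the 6 arrays compared, and 3 without TiO2 replicate 3, vehicle replicate 1 or vehicle replicate 2. With estradiol present the list median was 0.00.

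Hypoxia and glycolysis genes also lay slightly higher, with 34 measured, a median of 0.09, and 6 higher and 0 lower by the same count. The 6 were 17.6% of the list, beside 3.88% of all genes. The TiO2 arrays lay above the vehicle arrays in 10 of the 34, and in 6.01% of all genes. Pgam1, a glycolytic mutase, read 10.33, 10.50 and 10.27 against 10.14, 10.15 and 10.07, a difference of 0.25 ± 0.09. Ankrd37, an ankyrin repeat gene induced by HIF-1, read 10.08, 9.82 and 10.00 against 9.69, 9.72 and 9.48, a difference of 0.34 ± 0.12. Car9, a carbonic anhydrase of hypoxic cells, and the mitophagy receptor Bnip3 differed by 0.31 and 0.36. Without vehicle replicate 3 the count of 6 was 0, without TiO2 replicate 1 or 2 it was 2, without vehicle replicate 1 it was 3, and with estradiol present the list median was -0.04. Subunits of the mitochondrial respiratory chain had a median of 0.11 over 31 genes, with 4 higher (12.9%, beside 3.88% of all genes) and 0 lower. They were Ndufs3 and the cytochrome c oxidase and complex III subunits Cox5b (0.31), Cox4i1 (0.24) and Uqcrfs1 (0.28), and with estradiol present the median was 0.00.

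Interferon response genes lay on both sides, with more of them below 0 (32) than above (17). Of 49 measured, 2 were higher (4.08%) and 6 lower (12.2%) at an unadjusted p under 0.05, beside 3.88% and 4.29% of all genes. The median was -0.05. With the brightest probe set the lower count was 3. With estradiol present the list median was -0.18, and 2 members were higher and 6 lower by the same count, beside 886 and 1173 of all 23102 genes. Ifi44 read 6.0, 5.97 and 6.54 against 6.98, 7.23 and 7.49, a difference of -1.07 ± 0.25, and it was lower with estradiol too, at 6.12, 6.46 and 5.55 against 6.93, 7.32 and 6.73. The arrays did not overlap in either pair. The nucleotide kinase Cmpk2 differed by -0.52 and the nucleic acid sensor Zbp1 by -0.40, though Zbp1 was higher by 0.38 with estradiol. Mx1, a dim GTPase gene annotated as a transcribed pseudogene in the reference used, differed by -0.39, and its brightest probe set by 0.23. Ifit3, measured by 2 probe sets, stood on the other side, at 3.78, 4.81 and 5.31 against 3.48, 3.61 and 3.67, with an interval of 1.16-fold to 3.70-fold.

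Receptors for the uptake of particles had a median of 0.00 over 34 genes. At an unadjusted p under 0.05 in limma, 0 were higher and 5 lower (14.7%, beside 4.29% of all genes). Beside Mrc1 these were Havcr2 (-0.88), a receptor for phosphatidylserine, the lectin Clec4e (-0.22), and the receptor kinases Axl (-0.30) and Mertk (-0.24), which bind dying cells. Clec4e was among the brightest genes and read 10.74, 10.60 and 10.90 against a vehicle mean of 10.97 ± 0.03 (SD, n = 3), so the groups were separate by a narrow margin. The scavenger receptor Marco, which binds mineral particles, read 4.82, 4.80 and 4.79 against 4.63, 4.65 and 4.86, and Msr1, another scavenger receptor, read 9.74, 9.28 and 9.69 against 9.66, 9.78 and 9.72. Both overlapped, with intervals of 0.87-fold to 1.31-fold and 0.77-fold to 1.06-fold. All 41 measured genes of the lysosome and proton pump list had intervals within 1.5-fold, and their median was -0.03.

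**Figure D3:**
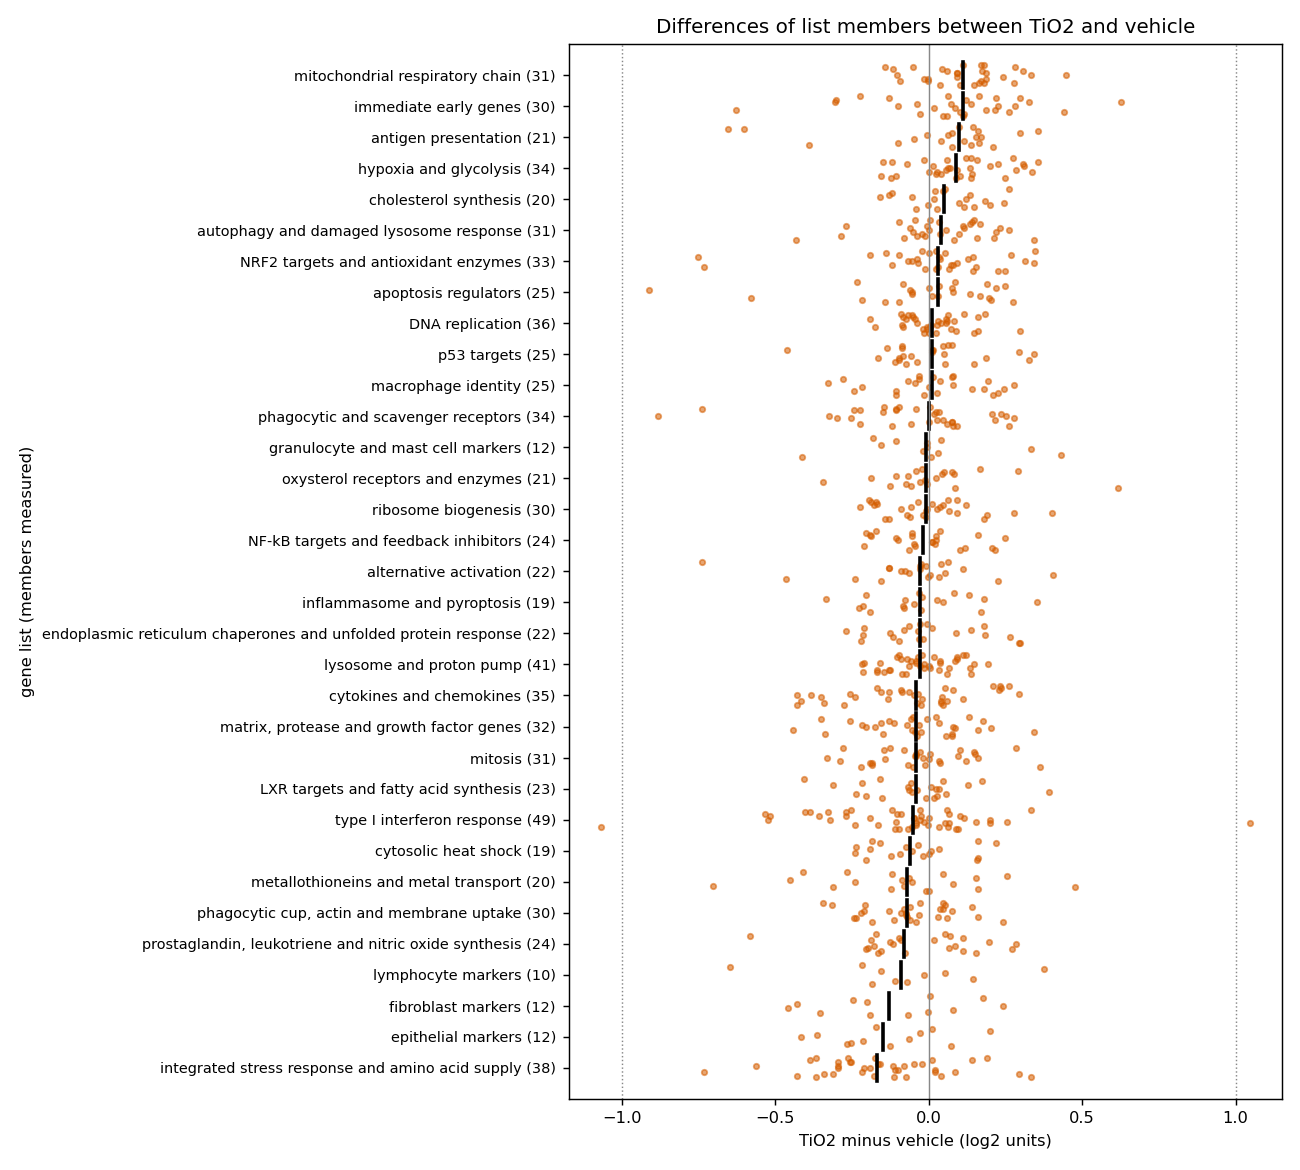
Differences between TiO2 and vehicle in log2 units for the measured members of 33 gene lists, a point per gene and a black bar at the median of each list, with dotted lines at 2-fold. List medians run from -0.17 for the integrated stress response to 0.11 for the respiratory chain and the immediate early genes, and few points pass the dotted lines.

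Inflammatory genes lay close to vehicle, most of them bounded within 2-fold. Among 35 cytokines and chemokines, 0 were higher and 0 lower at an unadjusted p under 0.05 in limma, beside 3.88% and 4.29% of all genes. Intervals lay within 2-fold for 33 of the 35. Tnf, the early inflammatory cytokine, read 9.11, 9.68 and 9.40 with TiO2 and 9.26, 9.39 and 9.41 with vehicle, with a fold between 0.86 and 1.24 (95% interval). Il1b read 3.52, 3.98 and 3.76 against 3.52, 3.74 and 4.07, with a fold between 0.75 and 1.29, and its level was dim, at percentile 35.3. The values of both genes overlapped. For the neutrophil attractant Cxcl2 the fold lay between 0.97 and 1.42, and for the prostaglandin synthase Ptgs2 between 0.66 and 1.18. The monocyte attractant Ccl2 had a wider interval than these 4, at 4.97, 5.29 and 5.87 against 5.40, 5.51 and 6.50, with 0.46 to 1.21.

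All 24 NF-kB targets and feedback inhibitors had intervals within 2-fold, and their median was -0.02. At an unadjusted p under 0.05, 1 was higher (4.17%, beside 3.88% of all genes). That gene was Birc3, an inhibitor of apoptosis, at 7.33, 7.33 and 7.30 against 7.0, 7.10 and 7.12. In the list of 19 inflammasome and pyroptosis genes, Gsdmd was the 1 gene past that level (5.26% of the list). It encodes the protein that opens pores in the membrane after caspase cleavage, and read 8.31, 8.32 and 8.21 against 7.89, 7.93 and 7.95, a difference of 0.35 ± 0.09. Its vehicle arrays lay below all other 15, and estradiol alone read 8.10, 7.99 and 8.18. Nlrp3, the sensor of the particle inflammasome, overlapped, with a fold between 0.93 and 1.36.

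Antioxidant and metal genes were likewise mostly close to vehicle, with Slc7a11 and catalase (Cat, -0.75) as the exceptions beyond 0.5 on the antioxidant list. Hmox1, heme oxygenase, read 9.43, 9.44 and 9.55 against 9.14, 9.19 and 9.34, separate but with a difference of only 0.25 ± 0.11 (adjusted p = 0.56, limma). Gclm, which encodes a subunit of the enzyme that starts glutathione synthesis, gave -0.02 ± 0.09. The metallothioneins Mt1 and Mt2, which bind zinc and copper, gave -0.01 ± 0.09 and -0.07 ± 0.12, and the interval of Mt1 was 0.87-fold to 1.13-fold. Gpx1, a glutathione peroxidase, was higher by 0.27 and Blvrb, biliverdin reductase B, by 0.31, each with arrays that did not overlap. The zinc importer Slc39a10 read 7.66, 7.27 and 7.69 against 7.15, 7.10 and 6.93, a difference of 0.48 ± 0.13. It was the 1 metal gene of 20 higher at an unadjusted p under 0.05 (5%, beside 3.88% of all genes). By that count 4 were lower, or 20% of the list beside 4.29% of all genes. They were Hamp (-0.70), the hormone hepcidin, which is among the dimmest genes, and the metal reductase Steap3 (-0.45). The others were the manganese exporter Slc30a10 (-0.41, but 0.30 by its brightest probe set) and Mtf1 (-0.31), the transcription factor that senses zinc. Over the 33 measured NRF2 targets and antioxidant enzymes the median was 0.03, and over the 20 metal genes -0.07.

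Genes of cell division and of sterol synthesis lay close to vehicle as well. Of 31 mitosis genes, 2 were higher (6.45%) and 3 lower (9.68%) at an unadjusted p under 0.05, beside 3.88% and 4.29% of all genes. Their median was -0.04, and 30 had intervals within 1.5-fold. In DNA replication 35 of 36 had such an interval, and in ribosome biogenesis 29 of 30. The cholesterol synthesis list had a median of 0.05, with 3 of 20 higher (15%, beside 3.88% of all genes). Among them were Mvd (0.26) and Fdps (0.20), enzymes of the mevalonate pathway, and 20 of 20 members lay within 1.5-fold. In bulk RNA, fewer cells of a kind and less RNA per cell cannot be told apart.

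Talc at the same mass per well shows where TiO2 differed from another particle. Against talc, 1237 genes were higher with TiO2 (5.35%) and 1064 lower (4.61%) in limma at an adjusted p under 0.05. This comparison shares the TiO2 arrays with the main one and the talc arrays with talc against vehicle, in which 910 genes rose (3.94%) and 1045 fell (4.52%). Fos stood at 6.46, 6.76 and 6.80 with talc, and TiO2 minus talc was -2.20 ± 0.15 (adjusted p = 4.4e-07). For Ptgs2, at 7.19, 7.24 and 7.58 with talc, it was -2.07 ± 0.20, for the placental growth factor Pgf -2.05 ± 0.21, for Osbp2, an oxysterol-binding protein, -2.01 ± 0.09, and for Il1rn, the interleukin 1 receptor antagonist, -1.91 ± 0.17. Each of these 5 genes passed, and TiO2 against vehicle gave between -0.35 (Il1rn) and 0.11 (Fos).

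On the other side, Tgfbi stood at 6.12, 5.90 and 5.98 with talc, and TiO2 minus talc was 2.30 ± 0.10 (adjusted p = 1.5e-09). P2ry12, a receptor for ADP, gave 1.69 ± 0.19, the stress kinase Map2k6 1.66 ± 0.13, and Tnfsf13b, the B cell survival factor BAFF, 1.58 ± 0.14, and all passed. In the mitosis list 30 of 31 genes were higher with TiO2 than with talc and 0 lower. In DNA replication 27 of 36 were higher, and in ribosome biogenesis 24 of 30 were lower. Of all genes, 5.35% were higher and 4.61% lower. Talc against vehicle, which shares the talc arrays, passed for 28 mitosis and 25 replication genes, all lower. It also passed for 23 ribosome biogenesis genes, all higher. The lists were chosen with earlier results of these data known. Mrc1 was higher with TiO2 than with talc (0.88, adjusted p = 0.00078), with the talc arrays at 5.0, 4.99 and 4.73, below all TiO2 arrays. The leading genes Gpr183 (0.45, adjusted p = 0.0042) and Mak (-0.62, adjusted p = 0.012) also differed from talc, but they were chosen by the TiO2 arrays, so the test against talc is not independent for them.

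The panel of 26 particle, inflammation and stress genes puts both particles side by side. Against vehicle, 0 passed with TiO2 in limma, and 6 had an unadjusted p under 0.05 (Hmox1, Tgfbi, Slc7a11, Chac1, Asns and Gpr183). Of all genes, 3.88% were higher and 4.29% lower at that level. Gpr183, Slc7a11 and Tgfbi are also leading genes of this comparison, so the count of 6 is not independent of those. With talc 9 rose and 5 fell at an adjusted p under 0.05, beside 3.94% and 4.52% of all genes. The median absolute difference was 0.16 with TiO2 and 0.43 with talc. For TiO2 the interval lay within 2-fold in 24 of the 26, the exceptions being Ccl2 and Slc7a11, and within 1.5-fold in 18. TiO2 minus talc passed for 13 of the 26, 4 higher and 9 lower, beside 5.35% and 4.61% of all genes. Slc7a11 and Chac1 had nearly the same values with both particles (-0.73 and -0.64, and -0.56 and -0.59), in comparisons that share the vehicle arrays.

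**Figure D4:**
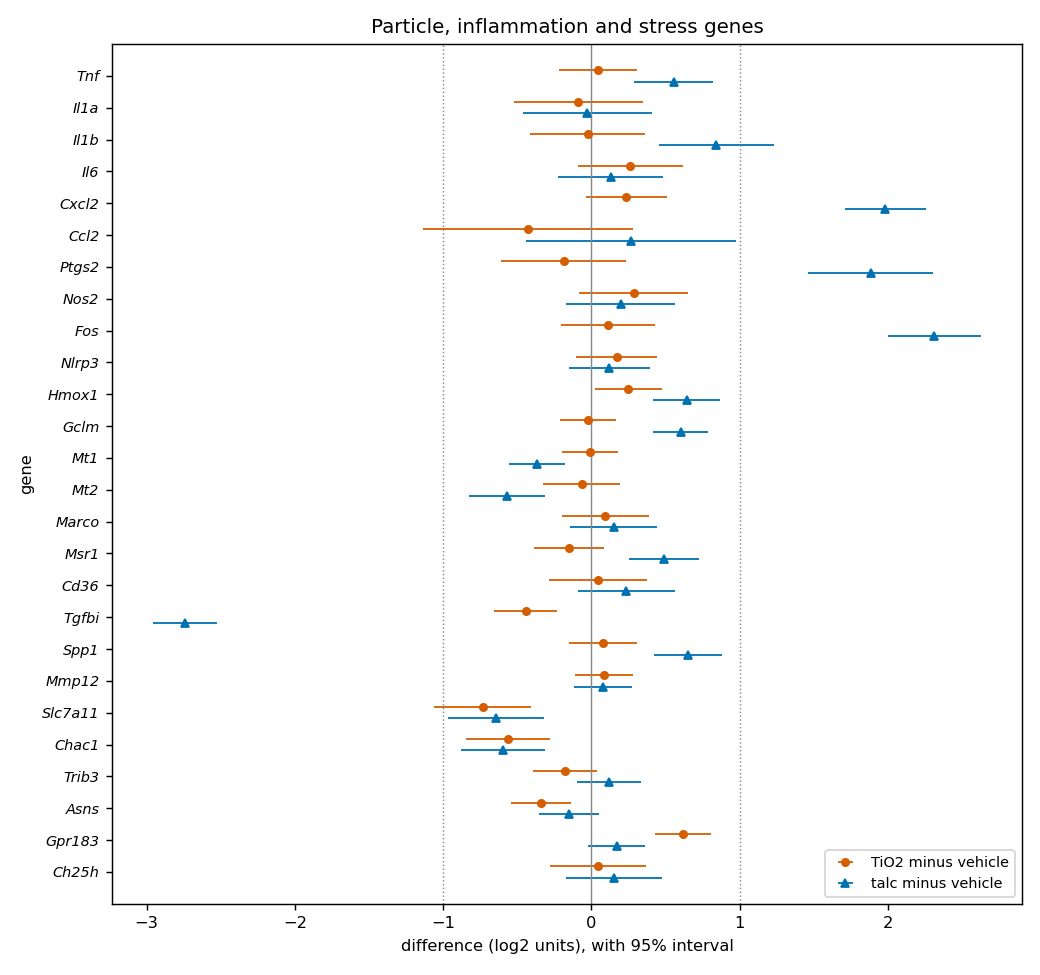
Differences from vehicle in log2 units, with 95% intervals, for 26 particle, inflammation and stress genes with TiO2 (circles) and talc (triangles), a gene per line and dotted lines at 2-fold. The TiO2 intervals lie within 2-fold for all but Ccl2 and Slc7a11, while talc reaches 2.31 for Fos and -2.74 for Tgfbi.

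TiO2 was also given with estradiol, on arrays that the main comparison does not use. Against estradiol alone 1 gene passed (0.00433%), D630033O11Rik, a dim gene without a functional name that read 3.82, 3.98 and 3.88 against 3.09, 3.10 and 2.94 (0.85 ± 0.12, adjusted p = 0.039, limma). Without estradiol it lay on the other side, at 3.18, 2.83 and 3.12 against 3.46, 3.33 and 3.29. For the interaction 0 genes passed (0%), and the smallest adjusted p was 0.057, for this gene. Arrays with TiO2 plus estradiol lay above those with estradiol alone in 1333 genes (5.77%) and below in 1944 (8.41%).

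Genes with separate arrays on the same side both without and with estradiol were set beside the shares over all genes. Higher in both were 94 genes. They were 6.77% of those higher without estradiol, beside 5.77% of all genes higher with it. Of those higher with estradiol they were 7.05%, beside 6.01% of all genes higher without it. Lower in both were 169. These were 11.4% of those lower without estradiol, beside 8.41% of all genes lower with it. Of those lower with estradiol they were 8.69%, beside 6.42% of all genes lower without it. On opposite sides, 101 were higher without and lower with estradiol (7.27%, beside 8.41%). Another 77 were lower without and higher with it (5.2%, beside 5.77%). Of the 10 leading genes on the higher side, 5 had the same sign with estradiol, and of the 10 on the lower side 7. Trappc6a kept separate arrays on the higher side, and Slit2, Zfp51 and Iars on the lower side, while Sertad3, Il18bp, Tchh and Ms4a6b had separate arrays on the opposite side. The median differences of these sets of 10 with estradiol were -0.02 and -0.03, beside 0.57 and -0.66 without it. The sets were chosen by their values without estradiol, which favours large differences there. These medians therefore cannot show whether estradiol changes the differences.

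Some of the largest differences rested on particular arrays. Ly96 encodes MD-2, the partner of the lipopolysaccharide receptor. It read 8.33, 8.20 and 9.60 with TiO2 and 9.84, 10.07 and 10.15 with vehicle, a difference of -1.31 ± 0.44. The third TiO2 array was near the vehicle arrays, and in the presence of estradiol the values were 9.42, 9.60 and 7.31 for TiO2 and 9.42, 9.83 and 9.93 without it, so there the third array alone was low. Vps33b, a vesicle fusion factor, read 7.26, 6.98 and 8.32 against 8.79, 8.87 and 8.91 and had the largest difference on the lower side, -1.34 ± 0.37, with 0 of 23 probe sets higher. In the TiO2 plus estradiol arrays it read 7.74, 8.24 and 6.45. Uprt, which resembles enzymes of uracil salvage, read 7.83, 7.80 and 8.89 against 9.32, 9.29 and 9.48, and Ceacam1, a cell adhesion molecule, 7.76, 7.87 and 8.75 against 9.10, 9.24 and 9.43. Catalase (Cat), which breaks down hydrogen peroxide, read 9.95, 10.01 and 10.72 against 10.95, 10.96 and 11.02. In all of these genes TiO2 replicates 1 and 2 and TiO2 plus estradiol replicate 3 were the low arrays, and their adjusted p-values lay between 0.33 and 0.50 (limma). TiO2 plus estradiol replicate 3 also had the lowest upper quartile of all arrays (222.2 intensity units), but TiO2 replicates 1 and 2 did not stand apart in theirs (239.2 and 239.5), and its part in these values was not tested. These genes were named after their values were seen.

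**Figure D5:**
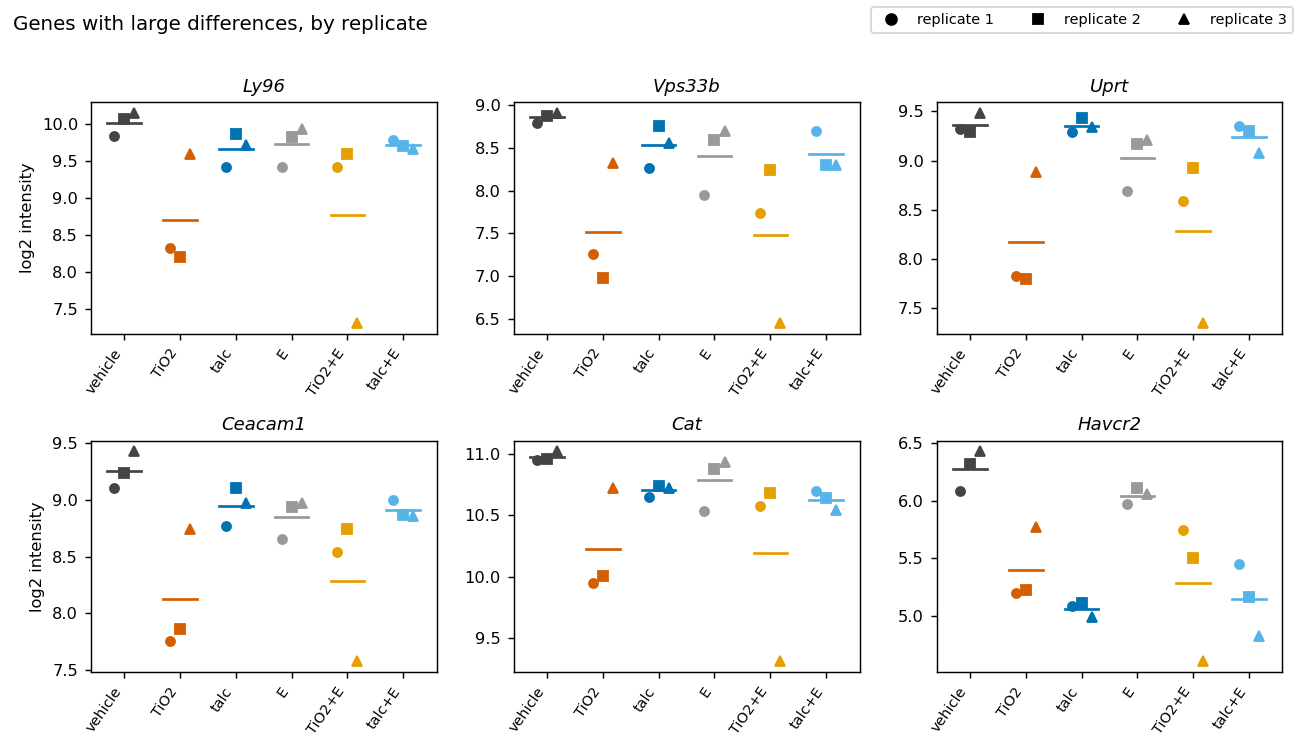
Log2 intensity of 6 genes with large differences on all 18 arrays, with circles, squares and triangles for replicates 1, 2 and 3, a line at each group mean and the 6 groups along the horizontal axis (E stands for estradiol). For Ly96, TiO2 replicates 1 and 2 (8.33 and 8.20) and TiO2 plus estradiol replicate 3 (7.31) lie below the other arrays.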

How the data were processed

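Each of 18 samples was measured on an Affymetrix array from total RNA. The authors deposited intensity values by probe set, linear in scale, and RMA is the tool named per the submitters' processing notes; its version, the level of summary and the step back from log2 are not given in the sources used here. Their log2 was taken first. Probe sets were named by the platform's annotation, and 2247 symbols were updated through the RefSeq genes of GRCm38.p6. A gene's value was the mean over its probe sets with a single symbol (233753 probe sets, 23102 genes, a median of 8 for a gene, and just 1 for 2303 genes). Probe sets with several symbols (5106) or none (30892) were left out, and no gene was filtered out. Probe sets that move apart cancel in the mean.

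Group means were compared in limma 3.58.1 (R 4.3.3, data.table version 1.17.8; lmFit and eBayes, a mean per group, 12 residual and 4.57 prior degrees of freedom), two-sided, with Benjamini-Hochberg adjustment over all genes. Errors are standard errors of the model, intervals are pointwise at 95%, and the median standard error was 0.151. The script was tested on simulated data.

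The members and the 33 gene lists (903 members, 871 measured; the other 32 were not analysed here) were chosen with earlier results of these data known. Named genes were the 10 with the smallest p on each side among genes whose arrays did not overlap, leaving out predicted genes, clones and genes of small RNAs; the same among genes above the median level; up to 4 leaders of each list; the panel of 26; and for TiO2 against talc the 6 largest differences on each side. Others were named after their values were seen, and not every gene that qualified is printed. Lists are described by counts and medians only. Alternatives were genes above the median level only, the brightest probe set, the median of probe sets, each probe set alone, 2 other scalings (quantile normalization, array medians subtracted), robust variances with an intensity trend, weights for arrays, a fit of the compared arrays alone, and each array left out in turn. Counts of list members under these were added after the data were seen.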

Additional observations from a re-analysis of the deposited data

How the results depend on the processing

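The count of 0 genes passing in TiO2 against vehicle became 1 among genes above the median level (Gpr183, adjusted p = 0.0089), 1 with array medians subtracted (Gpr183, 0.04) and 2 with an intensity trend and robust variance (Gpr183, 0.0064, and Ifitm2, 0.027), and it lay between 0 and 1 when single arrays were left out: H2af-ps2 passed without TiO2 replicate 2, Slc7a11 without TiO2 replicate 3, and Gm5446 without vehicle replicate 3. For TiO2 against talc, 2301 genes passed, and 1480 with the brightest probe set, 1278 with the median of probe sets, 4407 probe sets on their own, 1011 with only the arrays compared, and from 1353 (without talc replicate 3) to 1855 when single arrays were left out. For TiO2 plus estradiol against estradiol the count of 1 became 0 with the brightest probe set, the median of probe sets, the robust fit and only the arrays compared, and also on leaving out any of its 6 arrays. The interaction had 0 genes, 1 after quantile normalization, 1 with array medians subtracted, and 0 to 4 on leaving out an array, 4 being without TiO2 replicate 2. The cause of these shifts was not tested. Differences turned sign with the brightest probe set for Ttll3 (-0.01), Slc38a2 (0.01), Mx1 (0.23), Slc30a10 (0.30), Nusap1 (0.02), Npc1 (0.04) and Cldn3 (0.07). Of the values recomputed for named genes, 1109 kept their sign and side of the threshold, 7 turned sign and 5 came to pass. The median of the integrated stress response list was -0.23 with the median of probe sets. No paired analysis was possible because array numbers in the labels run on from group to group, and no number is shared by groups. Signal over background could not be judged, since the table holds no detection calls, so differences of dim genes are the least certain.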

Other observations

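Antigen presentation genes had a median difference of 0.10 between TiO2 and vehicle over 21 members, with 1 higher and 3 lower at an unadjusted p under 0.05. These were 4.76% and 14.3% of the list, beside 3.88% and 4.29% of all genes. Ciita, the master regulator of class II genes, read 4.40, 4.70 and 4.40 against 5.26, 5.15 and 4.90, and Cd274, the checkpoint ligand PD-L1, 6.03, 6.18 and 6.49 against 6.81, 6.49 and 6.56. The nonclassical class I gene H2-T23 stood on the other side, at 6.38, 6.29 and 6.44 against 6.06, 5.79 and 6.20, and with estradiol it lay lower with TiO2, at 5.76, 6.0 and 5.62 against 6.32, 6.47 and 6.25. The interaction for H2-T23 was -0.91 ± 0.20 (limma adjusted p = 0.27), and it contains the TiO2 difference by which the gene was named.

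Among 31 autophagy and damaged lysosome genes, 4 were higher (12.9%) and 3 lower (9.68%) at an unadjusted p under 0.05, beside 3.88% and 4.29% of all genes. Each of the 31 had an interval within 2-fold. Map1lc3a, which encodes a protein of the autophagosome membrane, read 6.89, 7.28 and 6.95 against 6.59, 6.81 and 6.68. Wipi1, an early autophagosome factor, read 6.81, 6.94 and 6.84 against 6.72, 6.55 and 6.54, and its TiO2 arrays lay above the other 15.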
